A study of Mus musculus with 4 samples.

Results

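The comparison described here set haemogenic endothelial cells that had gained surface CD41 against those that had not. Population 3 was sorted as Runx1+/VE-cadherin+/CD41+ and population 2 as Runx1+/VE-cadherin+/CD41-, so the pair shared the Runx1 and VE-cadherin gates and differed by the CD41 gate. The members were chosen by these sort labels, and they are 2 of the 4 arrays of the series. Population 1 (Runx1-/VE-cadherin+/Flk1+) and population 4 (Runx1+/VE-cadherin-/CD41+) are given beside them to place the values. All 4 populations came from the Runx1 Venus/+ ES cell line, in which 1 Runx1 allele carries the Venus fluorescent reporter, and all were co-cultured for 6 days on OP9 cells, a mouse bone marrow stromal line, with no drug or other treatment. A single heterozygous line and a stromal feeder of the same species therefore stand behind every value. RNA of sorted cells was hybridised to Affymetrix Mouse Genome 430 2.0 arrays, 1 array per population. With 1 array a side there is no replicate error, no test was possible, and each value below describes these arrays.

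Haemogenic endothelium is endothelium that gives rise to blood cells. Runx1 is a transcription factor needed for this step, VE-cadherin is the adhesion molecule of endothelial junctions, and CD41 is the integrin alpha IIb chain encoded by Itga2b, an early surface marker of blood commitment that persists on megakaryocytes and platelets. On the platelet surface it pairs with the beta 3 chain to form the fibrinogen receptor.

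A value called a signal is the array's intensity for 1 probe set, the brightest of each gene over the 4 arrays. A gene was called measured when its signal exceeded 100 in population 2 or 3, and signals below 100 were raised to 100 before a ratio was taken, so a fold against such a signal is written as "at least". Where 4 signals stand in a row they belong to populations 1, 2, 3 and 4 in that order. Of 18194 genes, 8780 were measured. Among these, 683 were above 100 in population 3 only and 114 in population 2 only. A gene of either kind can have a ratio in 1 direction alone. Counts of higher or lower genes are thus partly fixed by this rule. The array of population 3 was the brighter one. Its median log2 signal over all genes was 0.40 above that of population 2, and over measured genes the log2 ratio (population 3 over population 2) had a median of 0.25. The poly-A spike controls were also 0.40 higher in population 3, whereas the log2 difference of the hybridisation controls was -0.37. The median ratio over measured genes became -0.13 after centring each array on its median and 0.60 after scaling to the hybridisation controls. Gene groups are therefore given relative to the median of all measured genes. The 3' to 5' signal ratio of Gapdh was 0.847 in population 2 and 0.880 in population 3, and across measured genes the pair of arrays had r = 0.964, against 0.780 for populations 3 and 4 and 0.932 for populations 1 and 2. Since these were bulk samples, more cells of a type and more RNA per cell cannot be told apart.

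The sort markers followed their gates to differing degrees. Itga2b had signals of 667, 1135, 2418 and 1609.5, so that the transcript was already bright in the cells sorted as CD41- and was 2.13-fold higher in population 3. After centring, its log2 ratio was 0.69, below a doubling. Its partner chain Itgb3 had signals of 9.35, 17.3, 503 and 1354, near background in population 2 and at least 5.03-fold higher in population 3. Runx1 had signals of 55.3, 358, 1297 and 2440.2 and was 3.62-fold higher in population 3 than in population 2, although both were gated as Runx1+. Its 4 other measured probe sets had log2 ratios of 0.82 to 1.84 after the raising of signals below 100, which makes those of the dim ones lower bounds. The VE-cadherin gene Cdh5 had signals of 5683, 3946, 4849 and 40.9, and Kdr, which encodes the VEGF receptor Flk1, 5866, 4496, 4835 and 906. Both endothelial markers were thus bright on either side of the CD41 gate, with log2 ratios of 0.30 and 0.10, close to or below the median of all genes.

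Far more genes were brighter than dimmer in population 3. On the deposited scale 294 genes (3.35%) passed 2-fold upwards and 24 (0.273%) passed it downwards, while 26 (0.296%) passed 4-fold upwards and 0 (0%) downwards. After centring on the array median the counts were 97 (1.12%), 84 (0.97%), 11 (0.127%) and 2 (0.0231%). Each count of list members past 2-fold given below is to be read beside these shares of all measured genes. The size of the excess of higher genes therefore depended on the scale. The split at 2-fold was nearly even after centring on the array median, which left measured genes at a median log2 ratio of -0.13. Quantile normalisation left that median at -0.01 and kept an excess, with 116 higher and 63 lower genes at 2-fold and 13 and 1 at 4-fold. Centring took at most 0.40 off a log2 ratio and raised none. By construction, therefore, the 97 genes 2-fold higher after centring were all among the 294, and the 24 lower genes were all among the 84. For the same reason the 26 genes past 4-fold were each at least 2-fold higher after centring. These overlaps do not show how firm the identity of the genes is.

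**Figure D1:**
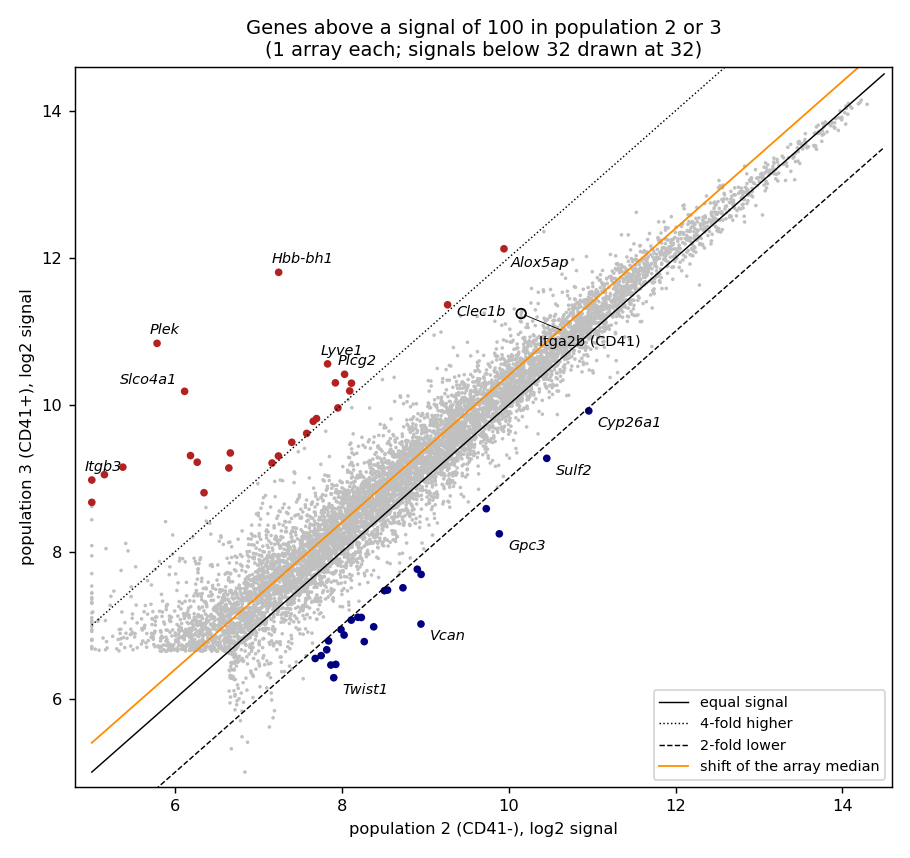
Log2 signal of each of the 8780 measured genes in population 3 against population 2, 1 array each. Red points are the 26 genes at least 4-fold higher and blue points the 24 genes at least 2-fold lower, both with signals below 100 raised to 100, so grey points left of log2 100 can lie above the dotted line. Most of the cloud lies above the line of equal signal, by the shift of the array median (0.40, orange).

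The 26 genes past 4-fold were led by an embryonic globin, Hbb-bh1 (23.6-fold), and by Plek (at least 18.3-fold) and Slco4a1 (at least 11.6-fold). Of the 26, 10 were below 100 in population 2, so that their folds are lower bounds. A second measured probe set existed for 13 of the genes, and the 18 such probe sets all had a ratio above 1, 10 of them past 2-fold with signals below 100 raised to 100. Those below 100 in population 2 were measured through population 3 alone, so their ratio had to exceed 1 and its direction is no support. The second probe sets of Ikzf2, Prkca and AI467606 were of this kind. They were below 100 in population 2 (35.4, 36.3 and 0.888) and above it in population 3 (112, 134 and 137), and give only a lower bound on the size. The genes just inside the 4-fold limit were Tmem255a (4.01-fold) and F13a1 (at least 4.07-fold), and those just outside were Apold1 (3.98-fold) and Tyrobp (at least 3.92-fold).

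Promoter sequence of the genes that moved most is shown because Runx1 itself was among the higher genes. RefSeq promoters (build GRCm38.p6, 250 bases before to 50 after the start) were listed for 18 of the 26 genes. The Runx letters TGTGGT or TGCGGT, on either strand, were found for 2 of the 18, against 24.3% of measured genes with a promoter and 25.03% of all promoters. The GATA letters AGATAA or TGATAA were found for 6 of the 18, against 11.5% of measured genes and 21.0% of all promoters. Among the 225 promoters of the genes at least 2-fold higher these shares were 25.8% for Runx letters and 16.9% for GATA letters. Among the 20 promoters of the genes at least 2-fold lower they were 40% (8 promoters) and 5% (1 promoter). A match is a description of the sequence and no sign of binding. Windows of 30 bases around matches follow, 5' to 3' on the strand of the gene, with the match in capitals, as its reverse complement where it lies on the opposite strand. The first 5 hold GATA letters in genes of the groups described below.
Clec1b, chr6:129397096-129397125, plus strand, 189 bases before the start: ggataatataaaTGATAAgattagacatta
Lcp2, chr11:34046810-34046839, plus strand, 106 bases before the start: caaaagagatccTTATCTgcaaagagtcag
Plcg2, chr8:117498025-117498054, plus strand, 249 bases before the start: aAGATAAtcaatgcatgcatggtatctgta
Pla2g4a, chr1:149922476-149922505, minus strand, 54 bases before the start: aacaagcctgagTGATAAaactttcttgct
Hba-x, chr11:32276480-32276509, plus strand, 108 bases before the start: tgttgctggctcTGATAAcaggctccaccc
The next windows hold Runx letters, in the pair of 4-fold genes that had them. The AI467606 window also holds a second match on the opposite strand, 177 bases before the start, left in lower case.
AI467606, chr7:127091238-127091267, plus strand, 186 bases before the start: aagtggttcttcACCACActgaccacatcc
Ifi35, chr11:101448314-101448343, plus strand, 86 bases before the start: aagtcttcccttTGCGGTcccaggagcaca
The window of Itga2b held neither set of letters. Gata2, the endothelial and progenitor GATA factor, had signals of 530.3, 548, 518 and 330.1, and Gata1 had 15.1, 26.9, 50.7 and 2065.

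Genes of platelet receptor signalling were among the higher genes. In platelets the receptor CLEC-2, encoded by Clec1b, signals through the kinase Syk, the adaptor SLP-76 (Lcp2) and phospholipase C gamma 2 (Plcg2), and the products of the lipase act on protein kinase C and on the Rap1 activator Rasgrp2 ahead of integrin activation. These genes were set side by side after their values had been seen. Clec1b had signals of 2514, 616, 2627 and 951, and was 4.26-fold higher in population 3 than in population 2. Lcp2 had 600.4, 202, 875 and 207, a 4.34-fold difference. Both had their lowest signal in population 2, and Lcp2 was as low in population 4. Syk itself had low signals, 170.3, 50.9, 195 and 189.6, at least 1.95-fold higher in population 3. Plcg2 had 466, 262, 1364 and 1795, a 5.21-fold difference, with its highest signal in population 4. Prkca, the gene of protein kinase C alpha, had 57.5, 151, 631 and 2283, a 4.18-fold difference. Plek, whose product pleckstrin is the main substrate of protein kinase C in platelets, had 12.3, 55.0, 1826 and 4099, near background in populations 1 and 2 and bright in populations 3 and 4. Its other probe sets, below 100 in population 2, had log2 ratios of at least 0.18 and at least 2.34. Rasgrp2 had 842, 787, 2353 and 1387, 2.99-fold higher in population 3. The integrin activator kindlin-3, encoded by Fermt3, was already at 4355 in population 2 and at 6684 in population 3, 1.53-fold higher, after 734 in population 1.

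Of the fixed list of megakaryocyte and platelet genes, 16 of 26 on the array were measured, and Plek, Itgb3, Clec1b, Rab27b and Nfe2 were at least 2-fold higher, on both scales. Of these, Plek, Itgb3 and Nfe2 were below 100 in population 2 and measured through population 3 alone, so they could only be higher. Rab27b, a GTPase of granule secretion, had signals of 233, 322, 992 and 939. The list median was 0.18 above the median of all genes on the log2 scale (0.07 to 0.89 over the settings tried). Genes of the mature platelet were low. Pf4, encoding the granule chemokine platelet factor 4, had 48.5 and 124 in populations 2 and 3, Tubb1, the platelet beta tubulin, 3.62 and 52.0, and Gp9, a subunit of the von Willebrand factor receptor, 1.5 and 31.8. F13a1, the transglutaminase subunit of coagulation factor XIII, which monocytes and platelets make, had 16.5, 24.9, 407 and 239.7. The higher genes therefore included the beta 3 chain and signalling genes, while defining products of the mature platelet were at or near background.

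Leukocyte signalling and actin genes held more members past 2-fold than any other pathway or cell type list. Of 39 genes on the array 19 were measured, all 19 had a log2 ratio above 0 as deposited, and 18 exceeded the median of all genes. At least 2-fold higher were 11 (57.9%, beside 3.35% of all measured genes), 9 of them after centring. Members below 100 in population 2, such as Plek, Itgb2 and Tspan32, were measured through population 3 alone. Their ratios could not fall below 0, so the direction of these members was fixed in advance. The list median was 1.13, which was 0.88 above the median of all genes (0.72 to 1.65 over the settings). Ptpn6, encoding SHP-1, a phosphatase that restrains receptor signalling in blood cells, had signals of 69.3, 101, 649 and 687, a 6.41-fold difference. Laptm5, encoding a lysosomal protein of blood cells, had 322, 277, 1254 and 1574, or 4.53-fold. Itgb2, the beta 2 chain of leukocyte integrins, had 32.1, 81.3, 446 and 739.7, at least 4.46-fold. Each was brighter in populations 3 and 4 than in populations 1 and 2. Was, the Wiskott-Aldrich syndrome gene that drives actin assembly in blood cells, had 38.0, 133, 426 and 479, or 3.20-fold, and Inpp5d, encoding the lipid phosphatase SHIP1, 144, 141, 390.0 and 213, or 2.76-fold. The signalling adaptors Tyrobp (16.5, 31.2, 392 and 678) and Fcer1g (27.9, 7.68, 346 and 466) were at least 3.92-fold and 3.46-fold higher. Ptprc, encoding the pan-leukocyte antigen CD45, was not measured in the pair, with 2.96 and 47.1.

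Some myeloid genes were higher while markers of mature myeloid cells were near background. Of 35 on the array 12 were measured and 6 were at least 2-fold higher, namely Tyrobp, Fcer1g, Cebpb, Csf1r, Mpo and Mrc1, of which Tyrobp and Fcer1g remained after centring. Tyrobp, Fcer1g, Csf1r and Mpo were below 100 in population 2 and measured through population 3 alone, so they could only be higher. Csf1r, the receptor of macrophage colony-stimulating factor, had a signal of 46.1 in population 2 and of 222 in population 3, and Mpo, the granulocyte peroxidase, had 61.2 and 222. The list median was 0.76 above that of all genes, but only -0.00 with signals raised to 200, since most members were dim. Defining markers of mature cells were near 0 on both arrays, as for Itgam (0.48 and 1.56), Adgre1 (3.78 and 29) and Elane (23.7 and 12.4). Of the mast cell and lymphoid lists 2 genes each were measured and 0 were 2-fold higher, too few genes to read beside 3.35% of all measured genes. Cytokine receptors gave 11 measured genes with a median 0.38 above all genes, and Csf2rb, the common beta chain of the receptors for interleukin 3 and GM-CSF, was the highest, with 208, 59.1, 339.8 and 2050.3. Like Csf1r, it was below 100 in population 2 and could only be higher. Kit, the stem cell factor receptor, had a log2 ratio of 0.04.

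Of the leukotriene and prostaglandin genes 8 were measured, and Pla2g4a, Alox5ap and Ltc4s were at least 2-fold higher on either scale. Pla2g4a and Ltc4s were below 100 in population 2 and measured through population 3 alone, so their direction was fixed in advance. Alox5ap was above 100 on both arrays. The list median lay 0.08 above that of all genes and moved between -0.10 and 1.05 over the settings, below 0 after scaling to the hybridisation controls and with a floor of 200, so no direction is given for the list. Leukotrienes are made from arachidonic acid, which cytosolic phospholipase A2 (Pla2g4a) releases from membranes, 5-lipoxygenase (Alox5) with its activating protein FLAP (Alox5ap) converts to leukotriene A4, and Ltc4s or Lta4h converts further. Pla2g4a had signals of 69.5, 76.9, 595 and 661, at least 5.95-fold higher in population 3. Alox5ap had 780.0, 984, 4454 and 1090.3, a 4.53-fold difference with its highest signal in population 3. Ltc4s, which makes leukotriene C4, had 63.2, 82.6, 388 and 19.9, at least 3.88-fold higher and also brightest in population 3. The lipoxygenase gene Alox5 had 35.9, 26.7, 130.4 and 171, and Lta4h was level at 1024, 1159, 1247 and 829. Ptgis, the prostacyclin synthase of endothelium, went the other way with 797 in population 2 and 533 in population 3 (log2 ratio -0.58). Mgst3, a microsomal glutathione transferase related to Ltc4s and outside the list, had 197, 99.97, 564 and 3607.

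**Figure D2:**
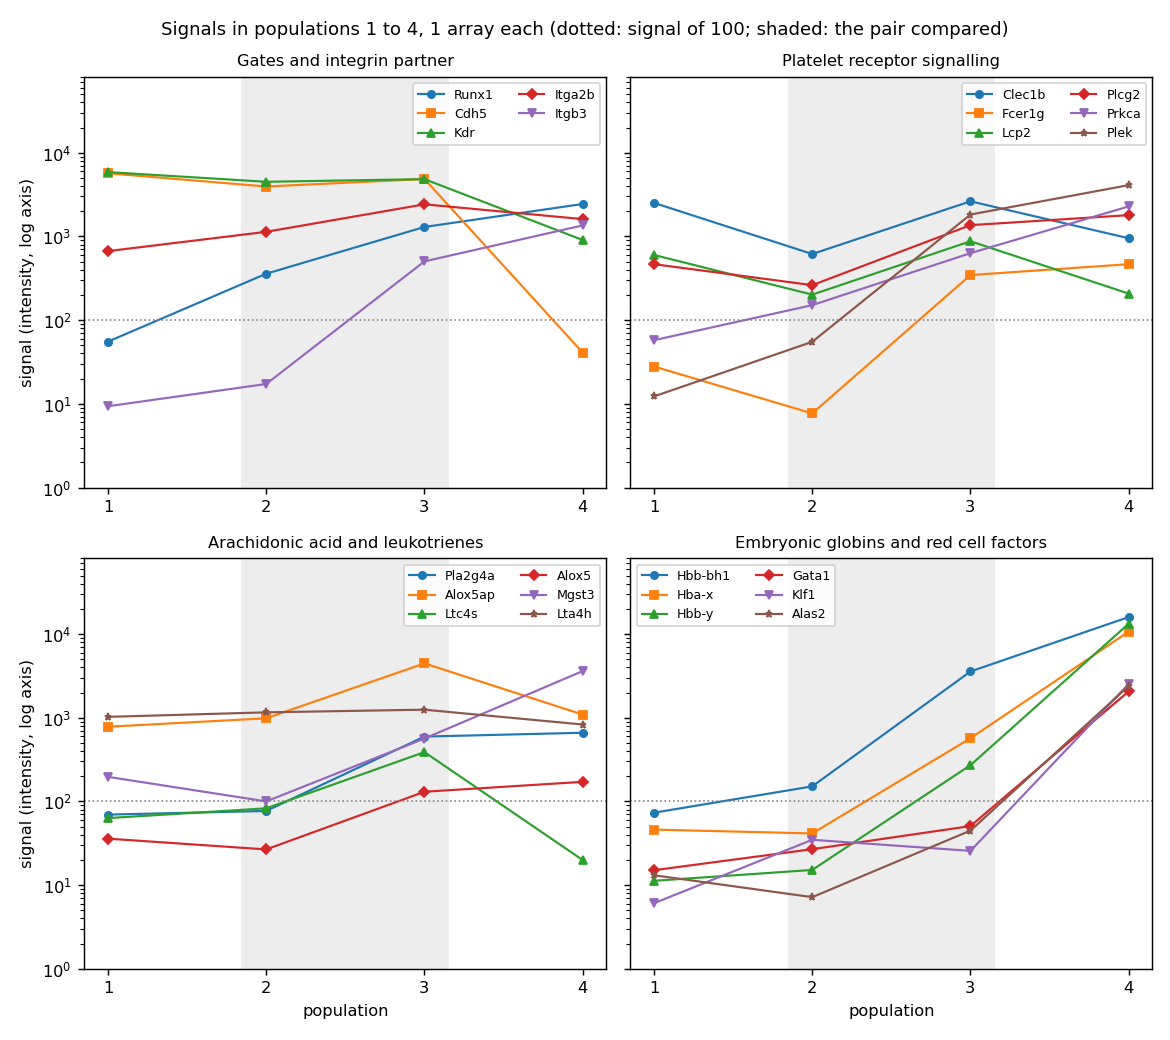
Signals of named genes in populations 1 to 4 on a log axis, 1 array and so 1 point per population, with the compared pair shaded and a dotted line at 100. Itgb3, Plek, Fcer1g and Pla2g4a cross the line between populations 2 and 3, while Gata1, Klf1 and Alas2 lie below it until population 4.

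Embryonic globin genes were higher, while Gata1, Klf1 and Alas2 were below 100 on both arrays. Hbb-bh1, the embryonic beta-like globin, had signals of 73.3, 151, 3568 and 15940.0, and its other probe sets had log2 ratios of 4.53 and 4.70. Hba-x, the embryonic zeta globin, had 46.0, 41.4, 568 and 10684, and Hbb-y 11.3, 15.2, 271 and 13284. All 3 measured globins were at least 2-fold higher on both scales, each well below its signal in population 4. Hba-x and Hbb-y were below 100 in population 2 and measured through population 3 alone, so they could only be higher. The globins of a family share sequence, and cross-hybridisation between them was not tested. Klf1, the erythroid Kruppel-like factor, had 34.8 and 25.6 in populations 2 and 3 against 2538 in population 4, and Alas2, the first enzyme of haem synthesis in red cells, 7.18 and 44.8 against 2396. Of 28 erythroid genes on the array 12 were measured, 11 had a log2 ratio above 0 and 8 lay above the median of all genes. Nfe2 was at least 2.77-fold higher, and Cpox, a later enzyme of haem synthesis, had 135, 215, 428 and 1888, or 1.99-fold. The list median was 0.14 above all genes.

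Among transcription factors of blood development, 28 of 36 were measured and 3 were at least 2-fold higher: Ikzf2, Runx1 and Nfe2. Ikzf2, encoding the Ikaros family factor Helios, had signals of 136, 273, 1165 and 1790.4. Nfe2, a factor of megakaryocytes and red cells, had 1.67, 42.4, 277 and 2373, and Myb, which definitive progenitors need, 2.08, 31.1, 174 and 1302. Both were below 100 in population 2, above it in population 3 and brightest in population 4, so against population 2 they could only be higher. Tal1, Fli1 and Gata2, which also act in endothelium, were level as deposited. Tal1 had 1094 and 1346 in populations 2 and 3, Fli1 2401 and 2701, and Gata2 548 and 518. After centring, Fli1 and Gata2 had log2 ratios of -0.23 and -0.48. Gfi1 and Gfi1b, Runx1 targets that repress endothelial genes, were at the detection limit, with 108 and 91.0 for Gfi1 and 40.1 and 100.4 for Gfi1b. Etv2, the ETS factor that starts the endothelial and blood programmes, had 199, 689.9, 439.6 and 245, a log2 ratio of -0.65. Over the list the median lay 0.08 above that of all genes, and it moved between -0.09 and 0.15 over the settings, so no direction is given for it.

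Endothelial genes were bright on both arrays. Of 46 on the array 43 were measured, and the median lay 0.07 above that of all genes (0.05 to 0.17). As deposited, Cav1, Emcn, Sox18, Cd34, Gpihbp1 and Cav2 were at least 2-fold higher, and 0 were after centring. Cav1, the coat protein of caveolae, had signals of 5513, 427, 1033 and 64.7. Emcn, a sialomucin of vessels, had 2498, 258, 571 and 7.28, and Cd34, a sialomucin of vessels and progenitors, 2950.1, 1367, 2974 and 257. Population 3 thus stood above population 2 and, for Cav1 and Emcn, well below population 1. Sox7 had 2331, 1686, 1119 and 30.4, a log2 ratio of -0.59. Of 16 measured arterial and Notch genes 8 lay above the median of all genes, and Cxcr4, a chemokine receptor, was the 1 past 2-fold (173 and 359). Epas1, the hypoxia-inducible factor 2 alpha gene, was 1.94-fold higher (1479 and 2870), and Dll4, a Notch ligand, 1.39-fold (256 and 356). Notch1 had 3706 and 4037, its target Hey1 4694 and 4724, and Efnb2 5860.3 and 5389.9. Lyve1, the hyaluronan receptor of lymphatic and some embryonic endothelium and macrophages, had 366, 227, 1504 and 57.5, a 6.62-fold difference with a second probe set at a log2 ratio of 2.55. Mrc1, the mannose receptor of the same cell types, had 2011, 1593, 3503 and 25, while the scavenger receptor Stab1 was level at 357 and 372. Gimap6, a GTPase of the immune-associated family, had 1557, 207, 898 and 40.9 (4.34-fold), and Tmem255a 4314, 247, 993 and 4.4. Gimap6 and Tmem255a were thus brightest in population 1 and intermediate in population 3, whereas Lyve1 and Mrc1 were brightest in population 3.

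Interferon-induced and class I antigen genes had a median log2 ratio of 1.23 as deposited and of 0.83 after centring, against 1.13 and 0.90 for the leukocyte signalling list. Of 21 on the array 9 were measured, all 9 lay above the median of all genes, and 5 were at least 2-fold higher, 3 of them after centring. The other 12 did not exceed 100 on either array, among them Ifit1, Ifit2, Ifit3, Irf7, Stat2, Oasl2, Mx1, Mx2 and Usp18. The values below therefore cover a part of the list. The deposited median was 0.98 above all genes (0.75 to 1.08 over the settings). Ifi35 had signals of 545, 191, 781 and 979.8, with other probe sets, below 100 in population 2, at log2 ratios of at least 0.61 and at least 0.42. Rsad2, which encodes the antiviral enzyme viperin, had 714, 224, 797 and 108, and H2-D1, a class I heavy chain gene, 617, 172, 491 and 277. B2m, the light chain of class I molecules, had 4563, 1659, 3895 and 2049.6. All 4 were lowest in population 2 or, for Rsad2, in population 4, and their signals in population 1 were nearer to those of population 3 than of population 2. Class I genes form a family of similar sequence, and cross-hybridisation among them was not tested.

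The 24 lower genes included the proteoglycan genes Vcan, Gpc3 and Gpc6. Vcan, encoding the matrix proteoglycan versican, had signals of 202, 493, 129 and 66.3, 3.82-fold lower in population 3, with other probe sets at log2 ratios of -1.72 and -1.46, the latter a bound because its signal in population 3 was below 100. Gpc3, encoding the cell surface heparan sulphate proteoglycan glypican 3, had 349, 946, 303 and 197, or 3.13-fold lower. After centring, these were the 2 genes past 4-fold lower. Gpc6, another glypican, had 134, 260.5, 117 and 69.8. Sulf2, a sulphatase that trims heparan sulphate, had 1132, 1404, 617 and 186, a 2.27-fold difference, and its other probe sets disagreed, with log2 ratios of -1.59 and 0.52. All 4 were brightest in population 2, and all 4 were dimmer in population 4 than in population 3.

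Others among the 24 act in Wnt, BMP and retinoic acid signalling or as transcription factors. Fzd7, a Wnt receptor, had signals of 194, 425, 182 and 169.9, and the ligand Wnt11 70.7, 226, 101 and 27.7, with folds of 2.33 and 2.22. Twist1, a factor of mesenchyme, had 118, 239, 77.9 and 22.6, at least 2.39-fold lower. Sox11, a SoxC factor, had 879, 479, 217 and 94.7, and its 4 other probe sets had log2 ratios from -1.31 to -0.84, the last of them a bound. Cyp26a1, which degrades retinoic acid, had 533, 1990.4, 966 and 106, and Bmp6, a BMP ligand, 152, 277, 134 and 9.86. Sox11 was brightest in population 1, whereas the others were brightest in population 2. Bmp2, a further BMP ligand, was 2.12-fold higher, with 602, 1953, 4141 and 1802. The early mesoderm list had 6 measured genes of 20, of which 0 were 2-fold lower as deposited, all 6 with a log2 ratio below 0 and a median difference from all genes of -0.60 (-0.84 to -0.36 over the settings). Hand2, Tbx20, Gata6 and Bmp4 were above 100 on both arrays. The remaining members were below 100 in population 3 and measured through population 2 alone, so their ratios could only be below 0. Hand2, a heart and mesoderm factor, had 337, 382, 229 and 41.0, and Tbx20 136, 346, 240.1 and 42.5. The N-cadherin gene Cdh2 had 2583, 2377, 1324 and 193, a log2 ratio of -0.84.

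**Figure D3:**
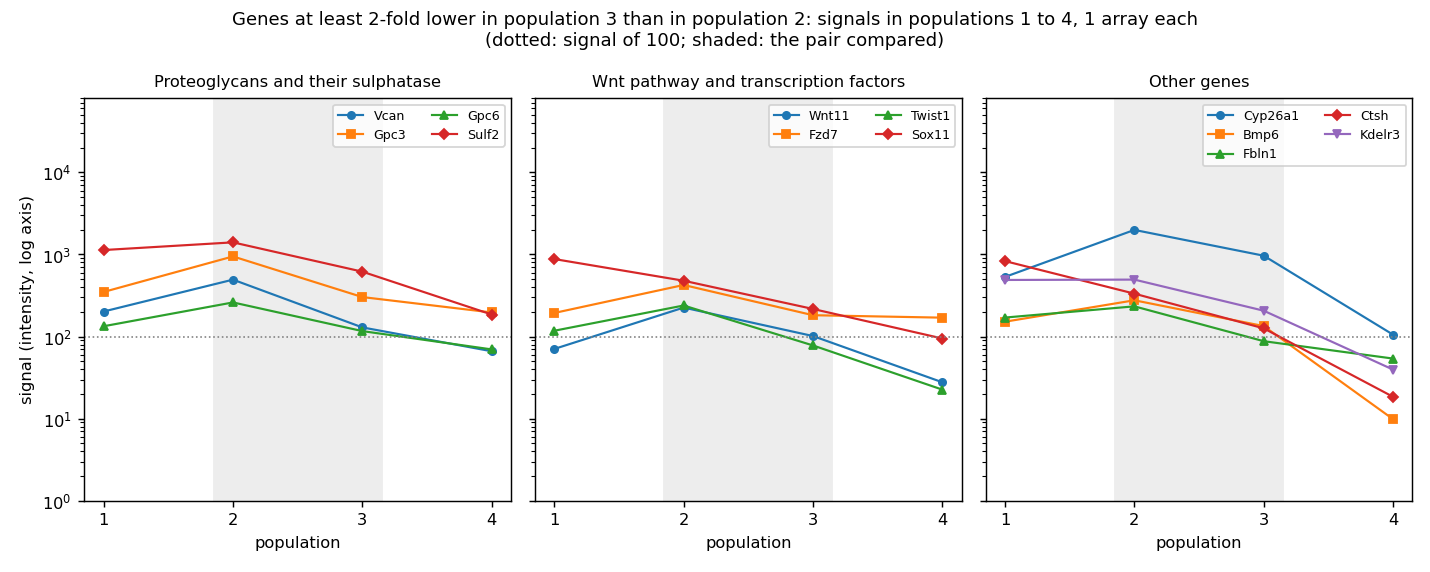
Signals in populations 1 to 4 on a log axis for 13 of the 24 genes whose signal dropped 2-fold or more between populations 2 and 3, 1 array per population, with the compared pair shaded and a dotted line at 100. Vcan, Gpc3, Fzd7 and Cyp26a1 peak in population 2, and Sox11 and Ctsh decline from population 1 onwards.

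Because OP9 cells are mouse stroma, markers of stromal and mesenchymal cells were set beside these values. Of 27 on the array 15 were measured, 1 was above the median of all genes, and 1, Twist1, was at least 2-fold lower. The list median differed from that of all genes by -0.38 (-0.44 to -0.23 over the settings). The summed signal of the list was 16148 in population 1, 10589 in population 2, 10264 in population 3 and 4304 in population 4. Fibrillar collagen genes were close on the 2 arrays, with 1132 and 969.9 for Col1a2 and 334 and 376 for Col3a1, whereas Pdgfrb had 271 and 159 and Acta2 1065 and 732. Defining markers were at or near background in both, among them Dcn (11.5 and 6.98), Thy1 (6.82 and 7.94) and Pdgfra (58.6 and 57.8). The part of stromal cells in the lower genes was not tested.

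The medians of several lists of general cell functions lay below that of all genes. The differences were -0.29 for glycolysis (-0.31 to -0.06 over the settings) and -0.27 for housekeeping (-0.29 to -0.02). They were -0.27 for cholesterol and fatty acid genes (-0.29 to -0.17), -0.25 for replication (-0.33 to -0.15) and -0.21 for RNA processing (-0.23 to -0.05). Glycolysis, housekeeping and RNA processing came nearest to 0 under quantile normalisation. The differences were larger for mitosis and ribosome biogenesis, without a test of that difference. Of the 24 mitosis genes measured, 0 were above the median of all genes, 19 had a log2 ratio below 0, and 0 were 2-fold lower as deposited. The list median was -0.13, a difference from all genes of -0.38 (-0.44 to -0.29 over the settings). Plk1, a kinase of mitotic entry, had the lowest ratio, with signals of 370.3, 1007, 637 and 1541, and Top2a, the topoisomerase of dividing cells, had 894, 2829, 2465 and 5455. Genes of ribosome biogenesis behaved alike, with 21 of 22 at or below the median of all genes and a difference of the medians of -0.42 (-0.44 to -0.29). Nop56, a core protein of nucleolar ribonucleoproteins, had 1278, 2743, 2245 and 3643. Each of these 3 genes was lowest in population 1 and highest in population 4, with population 3 below population 2. The median of the brighter signal was 948 for mitosis genes and 829 for ribosome biogenesis genes, and over the 3522 genes with a brighter signal from 400 to 1600 the median log2 ratio was 0.28. It was 0.22 over the 1461 genes from 1600 to 6400 and 0.03 over the 222 genes above 6400. The glycolysis, housekeeping and RNA processing lists were bright, with medians of the brighter signal of 5785, 3895 and 4622. The part of brightness in their differences was not tested.

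**Figure D4:**
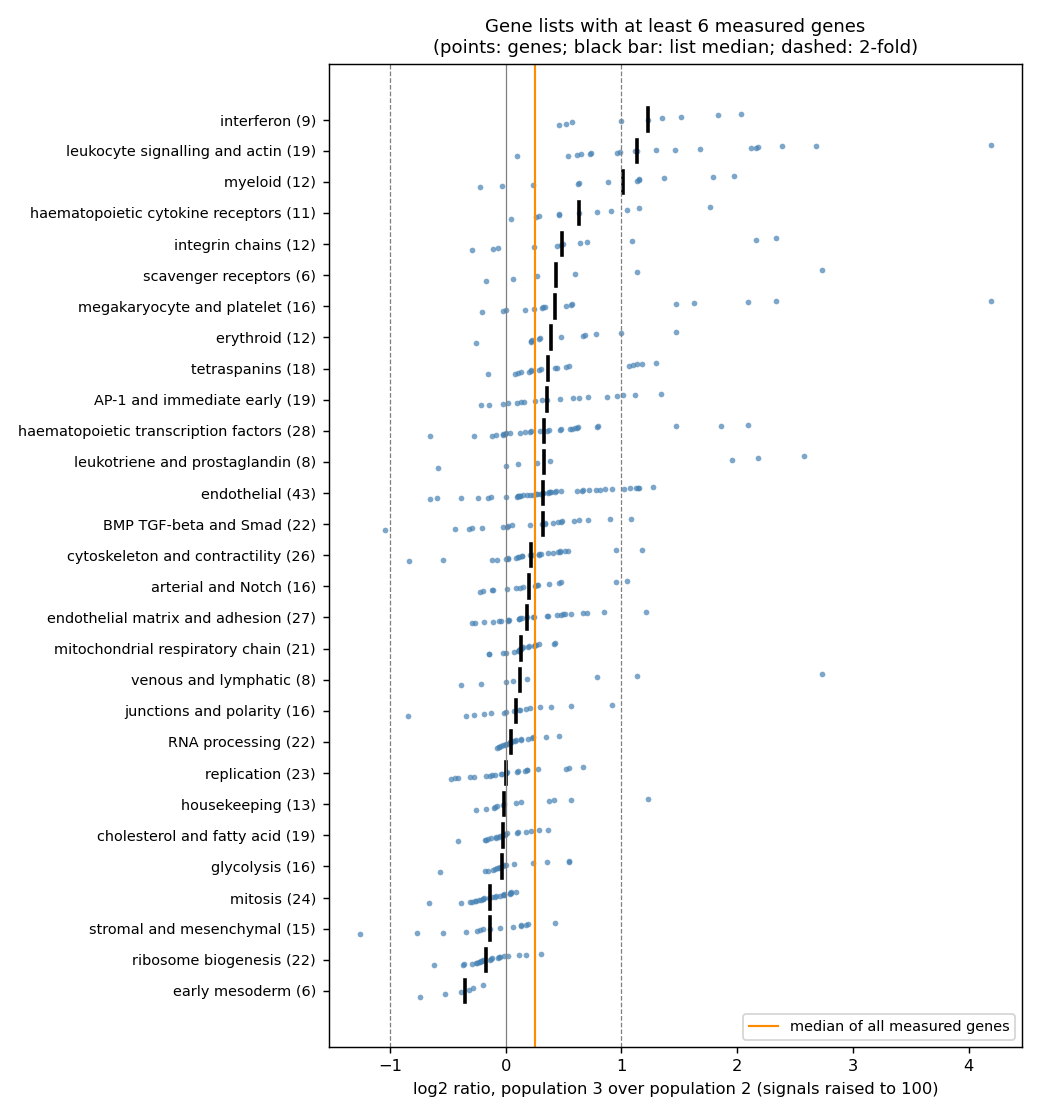
Log2 ratio of population 3 over population 2 for each measured gene of the lists with at least 6 measured genes, with the number measured in parentheses, the list median as a black bar and the median of all measured genes (0.25) as an orange line. Interferon, leukocyte signalling and myeloid medians lie above 1, and those of mitosis, stromal, ribosome biogenesis and early mesoderm genes lie below 0.

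Genes named beside a Runx1 ChIP-Seq peak in the study's peak table were followed for their signals. The table has a class labelled for populations 2, 3 and 4 and a class of peaks found in population 4 alone. For the former the study pooled the peaks of populations 2 and 3, which it reported to overlap highly with each other and with population 4. Of genes in the pooled class, 35 were measured, with a median log2 ratio of 0.20, 0 at least 2-fold higher and 1, Gpc6, at least 2-fold lower. With shares of 3.35% and 0.273% over all measured genes, 35 genes are too few to read these counts as a result. Of genes in the class of population 4 alone and not in the other, 421 were measured, with a median of 0.25, equal to that of all genes. Of these, 24 were at least 2-fold higher (5.70%, beside 3.35% of all measured genes) and 1 at least 2-fold lower (0.24%, beside 0.273%). Runx1 itself, Itga2b, Itgb3, Plcg2, Prkca, Alox5ap, Ikzf2 and Nfe2 were among the 24. No list was tested.

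**Figure D5:**
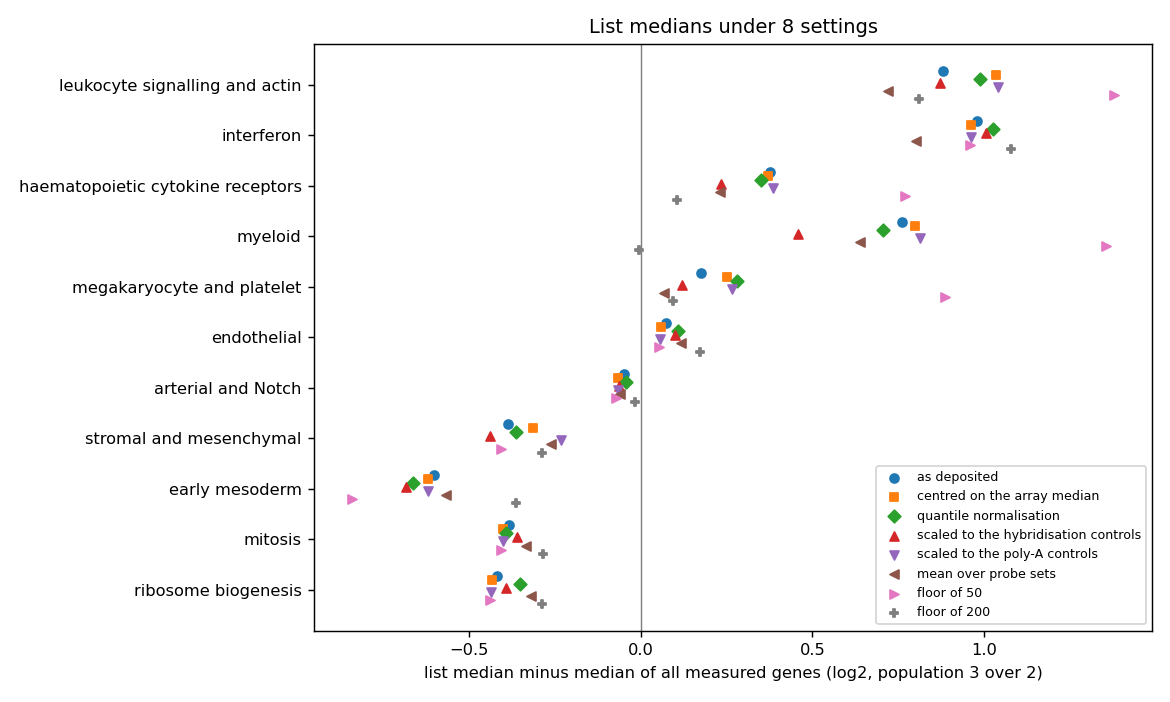
Median log2 ratio (population 3 over 2) of 11 gene lists minus the median of all measured genes, under 8 ways of scaling or flooring the signals. The leukocyte signalling and interferon lists stay above 0 and the stromal, early mesoderm, mitosis and ribosome biogenesis lists below 0 under each, while the myeloid list reaches 0 with signals raised to 200.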

How the data were processed

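The deposited table held probe set intensity values on a linear scale, made by the authors from Affymetrix Mouse Genome 430 2.0 arrays. The submitters' processing notes name MAS5 and GCOS 1.3. The scaling target and detection calls are not given in the sources used here. The table has 45101 probe sets. Probe sets paired with 1 symbol by the platform annotation (34958) were used, with symbols updated through RefSeq, and those with several (932) or none (9211) were left out. Of 64 control probe sets 13 have a symbol and were kept, and through them Actb and Gapdh are represented by control probe sets. Each gene was represented by its brightest probe set, on the mean of the log2 signals of the 4 arrays (18194 genes, 9012 of them with more than 1 probe set). Signals below 100 were raised to 100, genes above 100 in population 2 or 3 were compared, and ratios were taken as log2 of population 3 over population 2, with Python 3.11.15, pandas 2.3.3 and numpy 2.4.6. Simulated data served to check the computation. With 1 array per population the number of arrays limits the precision and no test was run.

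Genes named were the sort markers, globins and the Tal1, Gata2 and Fli1 triad, genes past 4-fold with a signal of at least 400, the next 20 in each direction, up to 4 members of each of 38 lists with a defining marker, genes the study names, and genes beside a Runx1 peak. Other genes, such as Rasgrp2 and further list members, were named after their values were seen. The members and lists were chosen with earlier results of these data known. Centring subtracted each array's median log2 signal over all genes. The other alternatives were quantile normalisation, scaling to control probe sets, other floors, a higher minimum signal, the mean over probe sets and leaving out probe sets of shared sequence. Promoter sequences are from RefSeq (GRCm38.p6). Gene names beside Runx1 peaks came from the study's peak table. Sequencing reads, Agilent arrays and embryo samples were not analysed here.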

Additional observations from a re-analysis of the deposited data

How the results depend on the processing

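The counts depended on how the arrays were scaled. Against 294 higher and 24 lower genes at 2-fold and 26 and 0 at 4-fold, centring on the array median gave 97 and 84 at 2-fold and 11 and 2 at 4-fold, quantile normalisation 116, 63, 13 and 1, and scaling to the hybridisation controls 1076, 7, 47 and 0. After the data were seen, centring on the median of measured genes (117, 60, 13 and 1) and scaling to the poly-A controls (97, 87, 11 and 2) were added. By construction these move the ratio of every gene together. The mean over probe sets gave 194, 14, 14 and 0 over 7034 genes. A floor of 50 gave 461 higher at 2-fold and 41 at 4-fold, a floor of 200 gave 163 and 8 at 2-fold and 13 higher at 4-fold, and a minimum signal of 400 gave 163 and 8 at 2-fold. Leaving out probe sets of shared sequence gave 278, 22, 24 and 0. All 26 genes past 4-fold stayed at least 2-fold higher under each rescaling and floor. For centring, scaling to controls and the floors this was fixed in advance, since none of them can bring a 4-fold ratio below 2-fold. Of the 25 still measured, 19 stayed at least 2-fold higher with the mean over probe sets, and 24 of 25 did without probe sets of shared sequence. Relative to all genes, the list medians of leukocyte signalling, interferon, megakaryocyte, cytokine receptor, erythroid and endothelial genes stayed above 0 and those of mitosis, ribosome biogenesis, stromal and early mesoderm genes below 0 under each alternative. The myeloid median turned to -0.00 with a floor of 200, and the leukotriene median to -0.08 after scaling to the hybridisation controls and -0.10 with a floor of 200. No paired analysis was possible because each population has 1 array. What cannot be told from 1 array a side is the spread between cultures, sorts and hybridisations. Probe sets of 1 gene differed in log2 ratio with an SD of 0.31 over 5951 pairs, which covers the probe sets and not the cells.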

Other observations

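Immediate early and tetraspanin genes also held higher members. Of 19 measured genes of the AP-1 and immediate early list 3 were at least 2-fold higher as deposited and 0 after centring. Nr4a1, an orphan nuclear receptor induced by many stimuli, had signals of 1259, 726, 1844 and 342 in populations 1 to 4. Klf2, a factor induced by blood flow in endothelium, had 1629.9, 1142, 2471 and 284, and Klf4 3184, 1797, 3625 and 279.7. All 3 were brightest in population 3, while Fos was level at a log2 ratio of 0.09 and Egr1 at -0.15. Of 18 measured tetraspanins 5 were at least 2-fold higher, and Tspan32, a tetraspanin of blood cells, was the highest, with 5.99, 15.4, 246 and 2731. It was also the 1 tetraspanin that passed 2-fold after centring, though its direction was fixed by a signal below 100 in population 2.

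Several genes outside every list had large ratios. Slco4a1, an organic anion transporter gene, had signals of 89.5, 69.2, 1161 and 318, and its second probe set, below 100 in population 2, had a log2 ratio of at least 2.27. Marchf3, a membrane-bound ubiquitin ligase gene, had 123, 72.7, 633 and 1040.2. Ptp4a3, encoding the phosphatase PRL-3, had 1251, 242, 1258 and 1559, nearly the same signal in populations 1 and 3 and far less in population 2. Ctse, encoding the aspartic protease cathepsin E, had 1381, 1371, 5234 and 3179, and Apobec2, of the cytidine deaminase family, 62.4, 169, 718 and 179. Ctse, Apobec2 and Slco4a1 were brightest in population 3. Ctsh, encoding the cysteine protease cathepsin H, went the other way, with 830.1, 333, 126 and 18.5.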
